A study of Homo sapiens with 10 samples.

Results

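The transcriptome of HN5 cells, a human head and neck squamous carcinoma line, was compared between cells transfected with a miR-7 precursor and cells transfected with miR-NC, a negative-control precursor. RNA was taken 24 h after transfection. Each precursor was measured on 2 Illumina arrays that the labels describe as biological replicates of a single cell line. These 4 arrays are part of a series of 10, and the whole of the comparison was used: 27577 of 48802 probes carry 1 gene symbol, for 18665 genes. All 4 arrays thus share the cell line and the exposure to a transfected small RNA, and differ in the precursor. No array of untransfected cells was analysed here.

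MicroRNAs lower gene expression by pairing with messenger RNAs, mainly through the seed at their 5′ end, after which the transcript is degraded or its translation is blocked. miR-7 is known for lowering EGFR and other components of growth factor signaling in cancer cells. Short double-stranded RNA can also be read by cells as a sign of virus, which starts the production of interferons and, through their receptors, of interferon-stimulated genes. The mature miRNA is shown because its seed is the part that decides which transcripts can pair with it. The RefSeq sequence below is 24 bases long, the seed (bases 2 to 8) is in capitals, and the same mature sequence is listed for MIR7-1 (GRCh38.p14, chr9:83969811-83969834, minus strand) and MIR7-3 (chr19:4770700-4770723, plus strand).
hsa-miR-7-5p: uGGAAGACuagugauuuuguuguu

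The arrays detected similar numbers of probes, 14158 to 14726 at a detection p-value under 0.01, with median intensities of 114.5 to 158.5. A probe with a gene was kept when it was detected on both arrays of at least 1 group, which left 12292 probes, and each of 9549 genes was represented by its brightest kept probe. Values below are background-corrected, quantile-normalized intensities on the log2 scale. One array, miR-7 replicate 2, differed from the rest. Over the genes tested, its Pearson correlation with each of the other 3 arrays was 0.909 to 0.928, against 0.970 to 0.987 among those 3, and a group of bright probes was near background on it alone, as described further below. The labelled cell type was borne out by its markers: KRT14 lay at 15.02 to 15.18, KRT5 at 14.43 to 14.70, SFN at 14.14 to 14.58 and CDH1 at 12.89 to 13.01 on the 4 arrays, and 6 of 6 squamous markers on the array were detected on every one. Of 13 leukocyte and endothelial markers on the array, 9 were detected on no array, PTPRC, CD3E, VWF and CDH5 among them. Their summed linear level was 5781 to 5806 with miR-NC and 8646 to 8898 with miR-7, mainly in CD68 (11.90 and 11.89, then 12.61 and 12.56 on the log2 scale) and CSF1R (10.03 and 9.99, then 10.41 and 10.74), and its part in the results was not tested.

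Genes were both lower and higher with miR-7. Of 9549 genes, 12 (0.126%) were lower and 17 (0.178%) higher with miR-7 after adjustment (adjusted p under 0.05, limma, Benjamini-Hochberg), with no overlap between the groups in any of the 29. Among those detected in both groups the falls were 3.18- to 4.83-fold and the rises 3.31- to 7.44-fold, while 3 falls and 3 rises were not detected in 1 group and are given as bounds below. At an unadjusted p under 0.05 and at least a 1.5-fold change, the pair of thresholds that the study's methods give, applied here to limma's p and called the 1.5-fold thresholds below, 421 genes (4.41%) were lower and 574 (6.01%) higher. The groups did not overlap in 4604 genes (48.2%), so the absence of overlap alone marks no gene. The smallest adjusted p was 0.0461 and the next above the threshold 0.0505, so that the 29 lay close to the threshold, and their number depended on the settings. With a robust variance prior 116 genes were lower and 140 higher, and with detection required on every array 66 and 84. Without miR-NC replicate 1, and likewise without miR-NC replicate 2, 0 genes passed in either direction (at the 1.5-fold thresholds 210 lower and 269 higher, and 307 and 624). Without miR-7 replicate 1, 860 were lower and 852 higher, and without miR-7 replicate 2, 307 and 255. Leaving out an array leaves a lone array in its group, whose spread is then taken from the other group. With median scaling in place of quantile normalization the median of all genes moved from 0.04 to −0.15, and the order of the counts turned, to 25 lower and 16 higher after adjustment and 719 lower and 250 higher at the 1.5-fold thresholds.

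On the quantile-normalized values, the miR-7 replicates had more large rises than large falls in common. The 2-fold counts here hold for that normalization only, and with median scaling the order of the called genes turned, as given above. Taken against the mean of miR-NC, 113 genes were at least 2-fold higher on both miR-7 arrays, 43 on replicate 1 alone and 160 on replicate 2 alone. At least 2-fold lower were 77 genes on both, 89 on replicate 1 alone and 477 on replicate 2 alone. Of these 477 genes, 234 were represented by a probe that was more than 2 log2 units below all 3 other arrays on replicate 2.

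**Figure D1:**
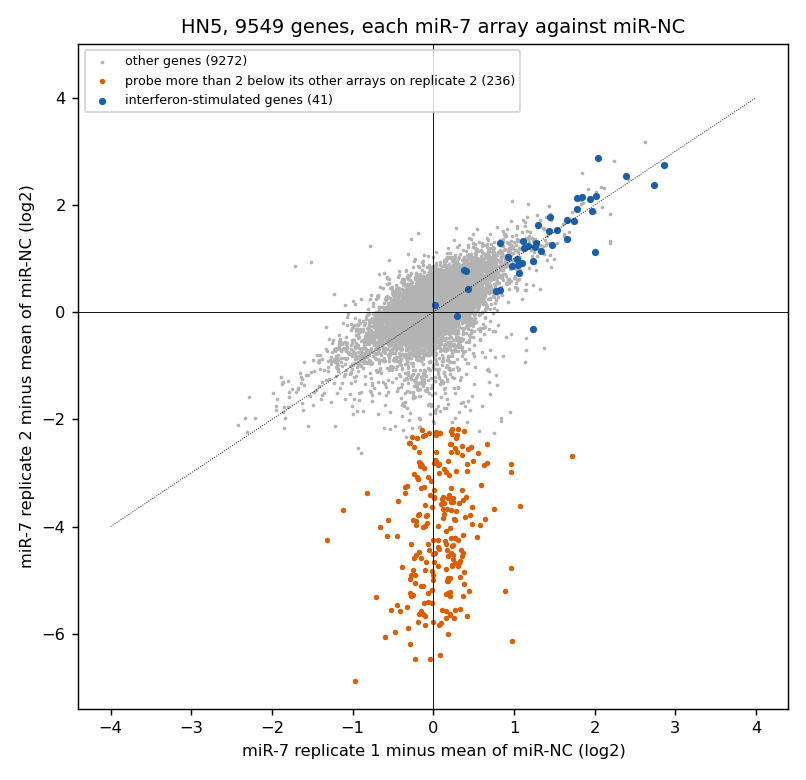
Each point is 1 of 9549 genes; the x axis gives miR-7 replicate 1 and the y axis miR-7 replicate 2, each minus the mean of both miR-NC arrays, in log2 units, and the dotted line marks equal values. Interferon-stimulated genes (blue) lie along the line at the upper right, while 236 genes (orange), whose probe was more than 2 below all other arrays on replicate 2, form a column near 0 on the x axis.

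The rises were led by the interferon system. Of 42 interferon-stimulated genes tested, 34 were higher and 0 lower at the 1.5-fold thresholds, against 6.01% and 4.41% of all genes, and 7 rose at an adjusted p under 0.05, against 0.178%. Their median log2 fold change was 1.24 (all genes 0.04), and it was 1.26 on miR-7 replicate 1 and 1.24 on replicate 2. With any 1 array left out, the number past these thresholds was 31 to 37. Fewer cells of a type and less RNA per cell cannot be told apart in these bulk samples. The list of interferon-stimulated genes was chosen with earlier results of these arrays known. Its counts are thus no independent evidence of its direction.

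Among the interferons, IFNB1, which encodes interferon beta, was at 5.04 and 4.91 with miR-NC, not detected, and at 7.22 and 7.79 with miR-7, detected on both arrays. IFNL1, which encodes a type III interferon that acts mainly on epithelia, was at 5.09 and 5.26 with miR-NC, not detected, and at 7.0 and 7.26 with miR-7. Where 1 group was not detected, the fold is given as a bound, the mean of the bright group over the mean, per array, of the lowest detected level or the probe's own level, whichever was higher. On that scale IFNB1 was at least 2.30-fold and IFNL1 at least 1.77-fold higher (limma adjusted p = 0.0461 for both). Probes detected in 1 group alone were kept through the group where they are high, so for these the p adds no support to the difference. Both probes were dim. Without background correction their log2 fold changes were 1.21 and 0.87 (adjusted p = 0.0581 and 0.0927), and on the authors' values 0.71 and 0.50. Of 6 genes for interferon receptor chains, 0 passed at the 1.5-fold thresholds, with a median of −0.02.

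RIGI, a cytosolic receptor for viral RNA, had levels of 8.27 and 8.23 with miR-NC and 10.04 and 10.38 with miR-7. AIM2, a sensor of cytosolic DNA, was at 9.23 and 9.28 with miR-NC and at 11.10 and 11.29 with miR-7. Both rose, by 1.96 and 1.94 on the log2 scale (standard error 0.20 and 0.18, limma adjusted p = 0.0461). Of 16 sensors and adaptors tested, in a group drawn up after the values were seen, like the other interferon roles here, 7 were higher and 1 lower at the 1.5-fold thresholds (6.01% and 4.41% of all genes). The RNA sensors IFIH1, DHX58 and TLR3 were among those higher, with log2 fold changes of 1.36, 1.59 and 1.41. The one lower was IKBKE, a kinase of interferon and NF-κB induction, with −1.10.

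Of 8 transcription factors of the interferon system tested, 4 were higher at the 1.5-fold thresholds and 0 lower (6.01% and 4.41% of all genes). IRF7, which amplifies interferon transcription, was at 8.53 and 8.92 with miR-NC and 9.82 and 9.64 with miR-7 (log2 fold change 1.01). ETV7, an interferon-induced repressor, was not detected with miR-NC (5.13 and 6.03) and was at 7.42 and 8.17 with miR-7, at least 2.81-fold higher. BATF2, also among the 4, was not detected with miR-NC (5.27 and 5.46) and was at 6.50 and 6.97 with miR-7. ETV7 and BATF2 were kept through the miR-7 group, where they are high, so they add no support to the count of 4.

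Among the roles, the antiviral effectors held the most genes that were higher. Of 30 tested, 24 were higher and 0 lower at the 1.5-fold thresholds (6.01% and 4.41% of all genes). RSAD2, which encodes viperin, an inhibitor of viral replication, was at 8.30 and 8.50 with miR-NC and 11.26 and 11.14 with miR-7. IFIT2, whose family binds viral RNA, was at 10.86 and 10.94 with miR-NC and at 13.29 and 13.44 with miR-7, a log2 fold change of 2.46 ± 0.18 (standard error). OASL, of the oligoadenylate synthetase family, was at 9.62 and 9.88 with miR-NC and at 12.48 and 12.11 with miR-7. In all 3 the miR-7 arrays lay above both miR-NC arrays by far more than the replicates differed. CH25H, which makes the antiviral sterol 25-hydroxycholesterol, was not detected with miR-NC (5.68 and 5.84) and was at 7.88 and 8.07 with miR-7, at least 3.18-fold higher. GBP5, also among the 24, was not detected with miR-NC (5.31 and 5.70) and was at 6.94 and 6.98 with miR-7. Both CH25H and GBP5 were kept through the miR-7 group, so they add no support to the count of 24. TRIM22 (log2 fold change 1.85) and IFIT3 (1.73) also rose at an adjusted p under 0.05, while ISG20, IFITM1 and XAF1 had changes of 2.02, 2.00 and 1.92 and passed the 1.5-fold thresholds only. MX1, already at 14.62 to 14.80 with miR-NC, was at 15.13 and 15.15 with miR-7 and did not pass (log2 fold change 0.43, adjusted p = 0.394). SAMD9 was at 11.91 and 12.13 with miR-NC, at 13.10 on miR-7 replicate 1 and at 8.41 on miR-7 replicate 2. Its log2 fold change of −1.27 was 1.08 without that array, and it was the one of the 42 interferon-stimulated genes below 0.

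ISG15, a ubiquitin-like protein that is attached to other proteins during infection, was at 12.47 and 13.13 with miR-NC and at 14.46 and 14.16 with miR-7 (log2 fold change 1.51, adjusted p = 0.126). UBE2L6, its conjugating enzyme, and HERC5, its main ligase, were higher by 1.21 and 1.47, and in all 5 of the 6 genes tested in this group passed the 1.5-fold thresholds upward (6.01% of all genes). USP18, which removes ISG15 and dampens the interferon receptor, was at 6.44 and 6.84 with miR-NC and at 8.65 and 8.81 with miR-7, and rose 4.26-fold. The inducible subunits of the immunoproteasome, PSMB8, PSMB9 and PSMB10, were higher at the 1.5-fold thresholds by 0.75, 0.70 and 0.62. In the antigen presentation group that holds them, 4 of 16 tested genes were higher and 0 lower (6.01% and 4.41% of all genes), with a median of 0.26. The chemokines CCL5 and CXCL10, which draw T cells, were higher by 1.94 and 1.52. TNFSF10, the death ligand TRAIL, was at 11.88 and 11.61 with miR-NC, 12.72 on miR-7 replicate 1 and 5.6 on replicate 2, where it was not detected. Its log2 fold change of −2.58 was 0.97 without that array.

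Of the 17 genes that rose at an adjusted p under 0.05, the largest change was that of HSH2D, which encodes an adaptor protein of lymphocyte signaling. It was at 6.61 and 6.79 with miR-NC and at 9.32 and 9.86 with miR-7, a 7.44-fold rise (log2 fold change 2.90, standard error 0.25). RTP4, a chaperone of G protein-coupled receptors that interferon induces, was at 8.92 and 9.31 with miR-NC and 11.54 and 11.60 with miR-7. TRANK1 (8.08 and 8.11 with miR-NC, 10.18 and 10.44 with miR-7) and TMEM140 (8.41 and 8.52, then 10.39 and 10.76) rose 4.62-fold and 4.31-fold. LAMP3, a lysosomal membrane protein of mature dendritic cells, rose 4.01-fold, from 9.93 and 9.88 to 12.09 and 11.73. COMMD10, of a family of endosomal trafficking proteins, was at 7.5 and 7.27 with miR-NC and at 9.47 and 9.35 with miR-7, a 4.08-fold rise.

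**Figure D2:**
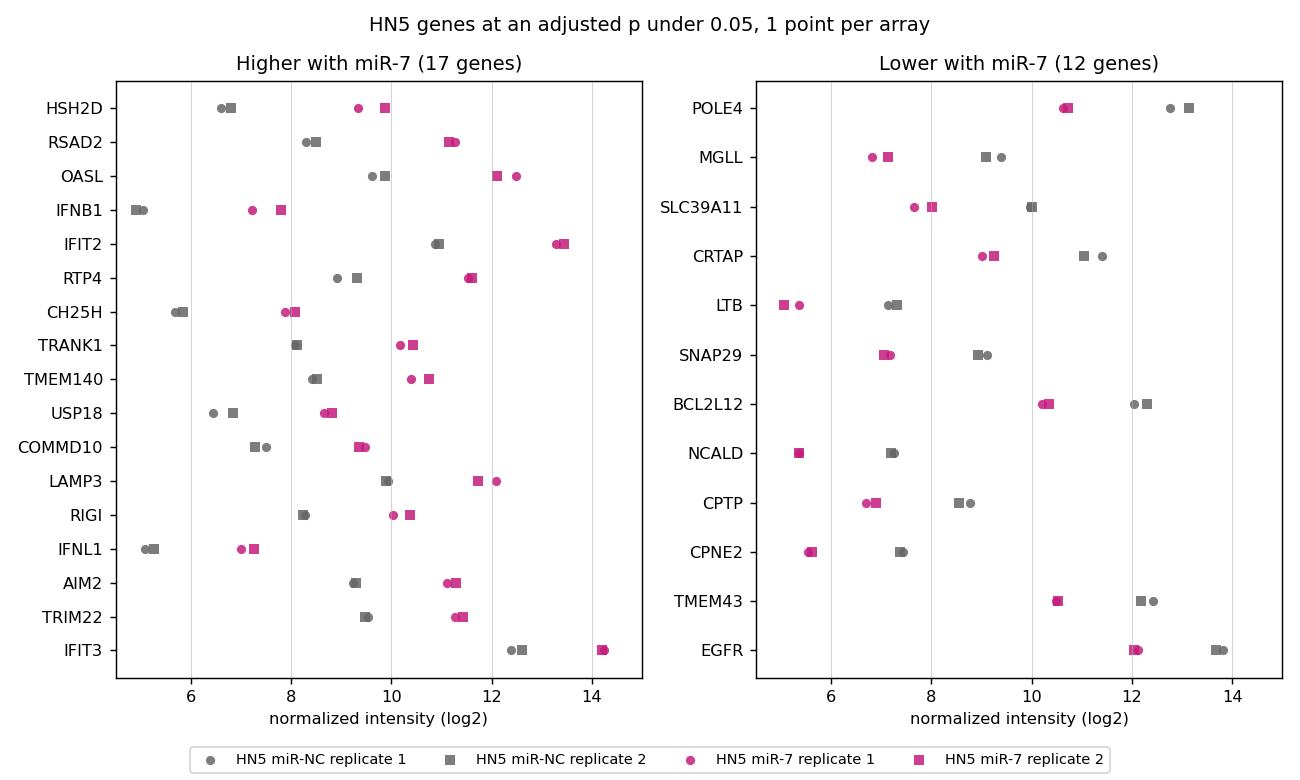
Log2 normalized intensity of the 17 genes higher (left) and the 12 lower (right) with miR-7 after adjustment, with 1 point per array (grey miR-NC, pink miR-7; circles replicate 1, squares replicate 2). In each gene both miR-7 arrays lie on the same side of both miR-NC arrays, and IFNB1, IFNL1 and CH25H start from levels at which they were not detected.

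Promoters of the risen genes were searched for the core of the interferon-stimulated response element, the DNA motif bound by interferon regulatory factors and their STAT complex. The motif searched was GAAA, then 2 bases of any kind, then GAAA, on either strand (TTTC and TTTC with the same gap on the other), in the RefSeq promoters of GRCh38.p14, 250 bases before to 50 after each gene start. Of 7941 tested genes with a promoter in the table, 4.04% held it, as did 3.57% of all 35116 promoters. Of 17 risen genes, 11 had a promoter in the table and 6 of these held the motif (RSAD2, RTP4, AIM2, TMEM140, IFNL1 and IFIT3), as did 26 of 33 interferon-stimulated genes and 0 of 10 genes that fell. Among genes at the 1.5-fold thresholds, 55 of 457 higher (12%) and 11 of 341 lower (3.23%) held it. A match describes the letters and is not evidence of binding. The windows of 5 of these risen genes are shown, because they are the sequence that the genes share, on the strand of the gene, with the motif in capitals and 30 bases on either side. They lie at chr2:6877602-6877671 (RSAD2, plus strand), chr3:187368313-187368406 (RTP4, plus), chr1:159076917-159076986 (AIM2, minus), chr7:135147989-135148058 (TMEM140, plus) and chr19:39296163-39296238 (IFNL1, plus).
RSAD2: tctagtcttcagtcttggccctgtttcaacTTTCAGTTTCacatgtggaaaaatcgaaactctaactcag
RTP4: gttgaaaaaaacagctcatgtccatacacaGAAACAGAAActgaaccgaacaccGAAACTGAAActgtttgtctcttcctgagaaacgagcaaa
AIM2: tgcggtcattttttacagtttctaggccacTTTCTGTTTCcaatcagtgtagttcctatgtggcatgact
TMEM140: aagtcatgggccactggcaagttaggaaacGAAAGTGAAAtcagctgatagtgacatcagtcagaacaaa
IFNL1: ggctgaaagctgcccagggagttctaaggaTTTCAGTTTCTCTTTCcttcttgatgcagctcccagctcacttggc
RTP4 held 2 motifs, the first bases of which lay 42 and 18 bases before the gene start, while in IFNL1 2 motifs overlap.

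The 12 genes that fell had varied known roles. POLE4, a small subunit of DNA polymerase epsilon, was at 12.75 and 13.14 with miR-NC and at 10.63 and 10.72 with miR-7. MGLL, a lipase of monoacylglycerols, was at 9.39 and 9.09, then at 6.81 and 7.14. SLC39A11, a zinc transporter, was at 9.96 and 10.01 with miR-NC and at 7.65 and 8.0 with miR-7. In each, both miR-7 arrays lay below both miR-NC arrays by more than replicates differed. SNAP29, a membrane fusion protein of the autophagosome, was at 9.11 and 8.93, then at 7.18 and 7.05. TMEM43, an inner nuclear membrane protein, was at 12.41 and 12.18 with miR-NC and at 10.49 and 10.52 with miR-7 (log2 fold change −1.79, standard error 0.19, adjusted p = 0.0461). EGFR, the receptor of epidermal growth factor, was at 13.81 and 13.68 with miR-NC and at 12.11 and 12.05 with miR-7, and had the smallest change among the falls detected in both groups (log2 fold change −1.67, standard error 0.18, adjusted p = 0.0492).

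CRTAP, a cofactor of collagen prolyl hydroxylation, was at 11.39 and 11.05 with miR-NC and at 9.01 and 9.24 with miR-7. BCL2L12, of the BCL2 family, was at 12.04 and 12.30, then at 10.21 and 10.34, and CPTP, which carries ceramide 1-phosphate between membranes, at 8.77 and 8.55, then at 6.71 and 6.90. These 3 fell by 2.09, 1.89 and 1.86 on the log2 scale, with no overlap between the groups.

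NCALD, LTB and CPNE2 lost detection on both miR-7 arrays. NCALD, a neuronal calcium sensor, was at 7.26 and 7.20 with miR-NC and at 5.37 on both miR-7 arrays, at least 1.74-fold lower. LTB, the cytokine lymphotoxin beta, was at 7.13 and 7.31 with miR-NC and at 5.37 and 5.05 with miR-7, at least 1.73-fold lower. CPNE2, a calcium-dependent lipid-binding protein, was at 7.43 and 7.38, then at 5.55 and 5.63, at least 1.97-fold lower. Without background correction the log2 fold changes of these dim probes were −0.83, −0.91 and −0.84, and none of the 3 passed (adjusted p = 0.0927, 0.0890 and 0.0927).

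Of 26 earlier reported miR-7 targets tested, 9 were lower and 1 higher at the 1.5-fold thresholds (4.41% and 6.01% of all genes), with a median of −0.46 that was −0.54 on miR-7 replicate 1 and −0.38 on replicate 2. The list was chosen with earlier results of these arrays known, so the count is no independent evidence of its direction. PLEC, a linker of the cytoskeleton, was at 11.97 and 11.75 with miR-NC and at 10.18 and 10.42 with miR-7. CNN3, an actin-binding calponin, was at 12.57 and 12.48, then at 11.10 and 11.14. VPS26A, a subunit of the retromer that recycles receptors from endosomes, was at 12.61 and 12.36 with miR-NC and at 11 and 10.99 with miR-7. Their log2 fold changes were −1.56, −1.40 and −1.49 (adjusted p = 0.0694, 0.0693 and 0.0694), and PSME3, CKAP4, PIK3CD, RELA and IL1B had changes of −1.18 to −1.55.

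Of 53 SNARE, retromer and endosomal recycling genes, 8 were lower and 1 higher at the 1.5-fold thresholds (4.41% and 6.01% of all genes), with a median of −0.01. Besides SNAP29 and VPS26A these included EHD1, which drives exit from recycling endosomes, at 12.85 and 12.51 with miR-NC and at 10.40 and 11.10 with miR-7. RAB11FIP5, an adaptor of recycling endosomes, was at 10.41 and 10.42 with miR-NC and at 8.97 and 8.96 with miR-7. Of 21 NF-κB subunits and targets, 7 were lower and 0 higher (4.41% and 6.01% of all genes), the cytokine genes IL1B, CXCL8, CXCL1 and LTB among them. CXCL1 and LTB were not detected with miR-7 and were kept through miR-NC, so they add no support to the count of 7. CXCL1 was dim, at 7.28 and 6.55 with miR-NC and at 5.93 and 5.29 with miR-7. Its bound, at least 1.397-fold lower, is under 1.5-fold. CXCL8, which encodes interleukin 8, was at 11.27 and 11.22, then at 10.06 and 10.18 (log2 fold change −1.13). The median of that list was −0.64, and −0.29 without miR-7 replicate 2. Both lists were chosen with earlier results of these arrays known, so their counts are no independent evidence of direction.

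Most other lists held few genes past the 1.5-fold thresholds, which 4.41% of all genes passed downward and 6.01% upward, and with so few members past them these counts set no list apart. Of 29 G1/S and replication genes, 2 were lower and 0 higher. These were CHEK1, a checkpoint kinase (−0.86), and UHRF1, which maintains DNA methylation (−1.07). Of 32 G2/M genes, PKMYT1, the kinase that holds back CDK1, was the one lower (−0.75). Of 28 keratins and squamous differentiation genes, PKP1 and PKP2, which anchor keratin filaments to desmosomes, were lower, by −0.80 and −0.96. In the 20 genes of small RNA machinery, 3 were higher and 0 lower, MOV10, a helicase that interferon induces (0.96), and DCP2, the decapping enzyme (0.98), among them. Of 32 genes of endoplasmic reticulum and amino acid stress, 3 were higher and 0 lower. DDIT3, which encodes the stress factor CHOP, and VLDLR, a lipoprotein receptor, had log2 fold changes of 1.01 and 1.09. Of 25 ubiquitin-conjugating enzymes, 3 were lower (UBE2D4, UBE2J1 and UBE2N), 3 higher (UBE2L6, UBE2O and UBE2V1) and the rest did not pass, and in the proteasome list of 34 genes PSME3 was lower and the 3 inducible subunits higher. For growth factor signaling, 2 of 3 EGFR ligands, 2 of 11 receptor tyrosine kinases and 3 of 15 ERK output transcripts were lower and 0 higher. Lower were also 2 of 65 cytosolic ribosomal proteins and 1 of 16 integrins and laminins, with 0 higher. Of 17 p53 targets 2 were higher, and 1 of 45 respiratory chain genes and 1 of 29 glycolysis and hypoxia genes, with 0 lower. Of 11 epithelial junction genes 1 was lower and 1 higher. Of 4 leukocyte and endothelial markers tested, 1 (CD68) was higher and 0 lower, with a median of 0.44. Of 18 cholesterol synthesis genes, 10 mesenchymal markers, 12 housekeeping controls and 5 fibroblast markers, 0 passed.

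**Figure D3:**
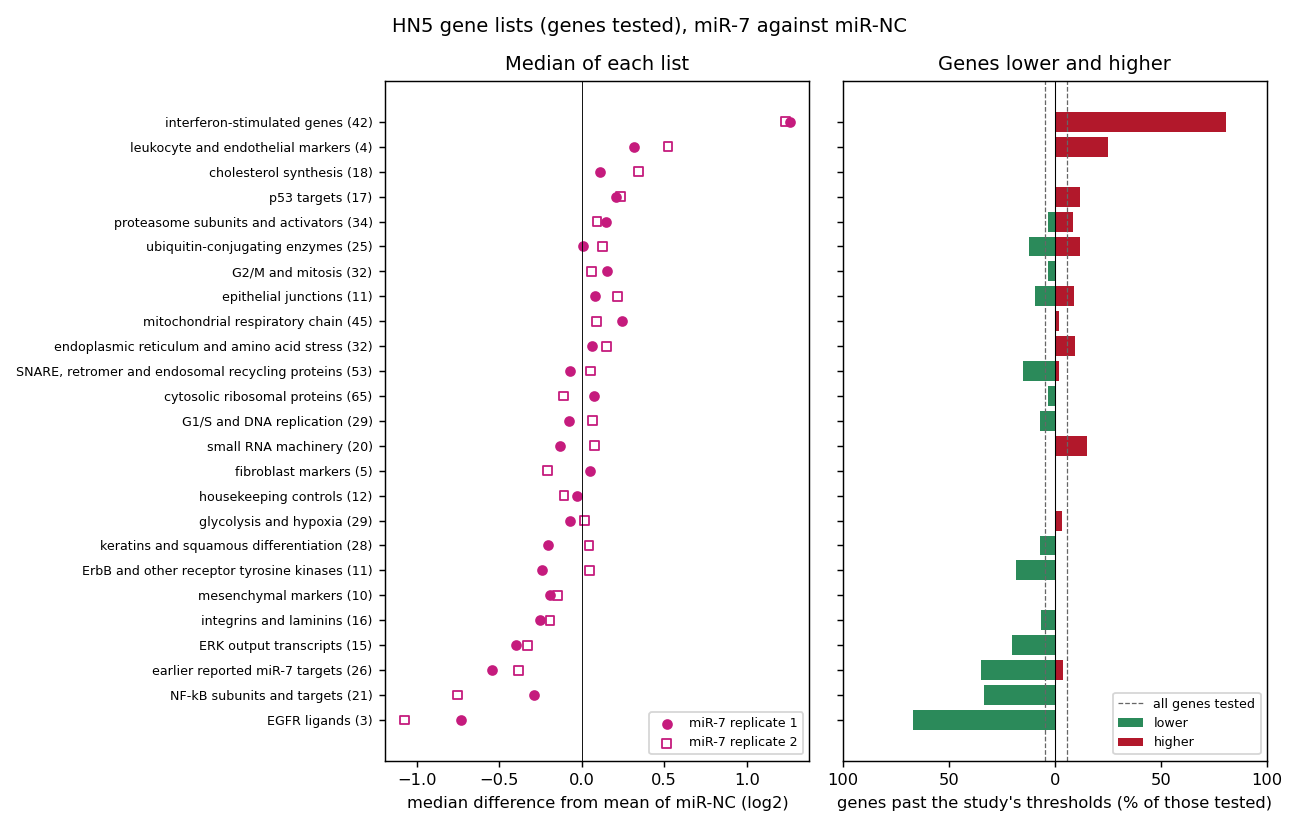
Left, the median difference from the mean of miR-NC in log2 units for each gene list, separately for miR-7 replicate 1 (filled circles) and replicate 2 (open squares); right, the percent of tested genes lower (green) and higher (red) at the 1.5-fold thresholds, with dashed lines at the 4.41% and 6.01% of all genes. Interferon-stimulated genes lie at 1.26 and 1.24, and the lists with medians under −0.3 on average are EGFR ligands, NF-κB, earlier targets and ERK output.

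Where a gene had several probes, they were compared to see how far its change depended on the probe. Of 12292 kept probes, 575 (4.68%) were lower and 700 (5.69%) higher at the 1.5-fold thresholds, and with adjustment over all probes 0 passed an adjusted p of 0.05 in limma in either direction. Of 9549 genes, 2262 had at least 2 kept probes. In 1470 of these (65.0%) all probes had changes of the same sign, and the brightest and second probes differed by a median of 0.22 log2 units. The Pearson correlation of their changes across genes was 0.42, and 0.64 over the 2117 genes that had no probe more than 2 below all other arrays on miR-7 replicate 2. Genes are not independent replicates, and the probes share the arrays. The share with 1 sign was 66.6% in those 2117 genes and 42.1% in the other 145.

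Genes that passed the 1.5-fold thresholds had probes of 1 sign more often when lower than when higher, 83 of 90 (92.2%) against 95 of 118 (80.5%). Some of these genes had a probe more than 2 below all other arrays on miR-7 replicate 2. Without them the shares were 79 of 86 (91.9%) and 95 of 114 (83.3%). The difference was not tested. The calls used the brightest probe, so the shares of called genes describe the remaining probes only in part. Of the genes at an adjusted p under 0.05, all 5 lower and all 4 higher ones with several probes had 1 sign throughout. BCL2L12 fell by 1.89, 2.02 and 1.89 on its 3 probes. OASL rose by 2.55 and 2.66, and MGLL fell by 2.26 and 2.81. EGFR was less even: its brightest probe gave −1.67, and the others, in order of brightness, −0.50, −0.21 and −0.69.

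Several further genes were even across their probes. APOL2, an apolipoprotein L that interferon induces, gave 1.58 and 1.62, CCL5 1.94 and 2.13, and PSME3, the nuclear proteasome activator, −1.55 and −1.90. GNA12, a G protein subunit, gave −0.77, −0.84 and −0.99 on 3 probes, the last of which was detected with miR-NC alone and kept through that group. Among the 8 called genes with the largest gaps between probes, 5 had a probe more than 2 below all other arrays on miR-7 replicate 2 and 3 did not. In FST, which encodes follistatin, an activin inhibitor, the probes gave −0.89 and −3.49, in TMEM14C, a mitochondrial protein of heme synthesis, −0.62 and −2.96, and in LRRC37B 0.60 and −1.84. IFIT1 gave 1.28 on its bright probe and −0.65 on the dim one, which was at 8.20 and 8.02 with miR-NC, 9.54 on miR-7 replicate 1 and 5.38 on replicate 2. In these 4 genes and in GLRX2, a mitochondrial glutaredoxin (0.68 and −0.97), the second probe was the low one. The 3 without such a probe were ICE2, a subunit of a complex for small nuclear RNA transcription, with 0.76 and −1.29, APH1B, of the gamma-secretase complex, with 0.60 and −1.28, and MAX, the partner of MYC, with 0.76, 0.09 and −1.08. The lowest probes of ICE2 and MAX were dim and also lower on miR-7 replicate 2 alone. They were at 6.6, 7.1 and 6.4, then 4.7 (ICE2), and at 6.6, 6.8 and 6.4, then 4.7 (MAX). That of APH1B was at 8.05 and 7.89 with miR-NC and at 6.82 and 6.56 with miR-7.

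**Figure D4:**
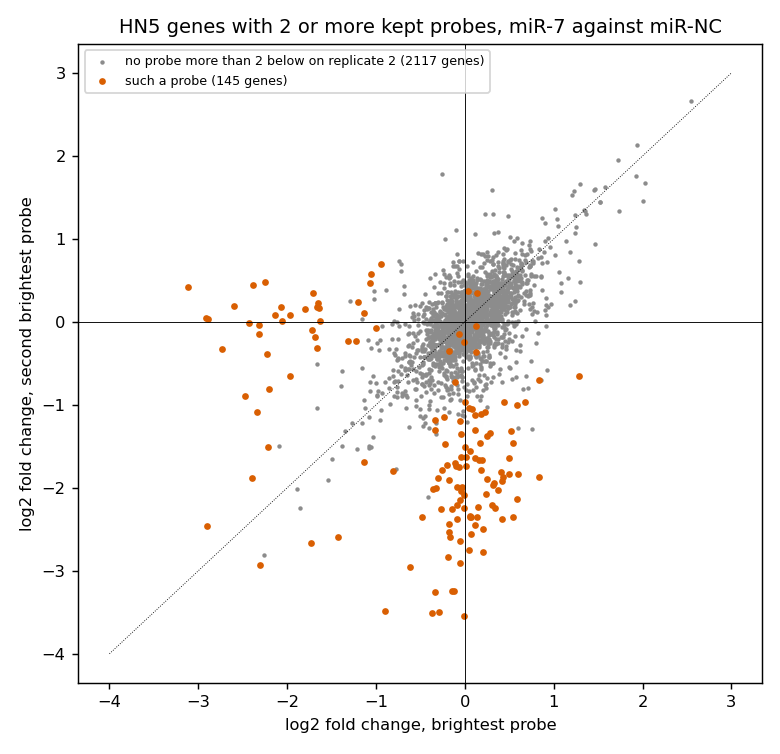
Log2 fold change of the brightest (x axis) against the second brightest (y axis) kept probe of 2262 genes, with equal values on the dotted line. Grey points are 2117 genes with no probe more than 2 below all other arrays on miR-7 replicate 2; the 145 genes with such a probe (orange) lie mainly along the axes, where 1 probe moved and the other did not.

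Loss of detection was uneven among the arrays. At a detection p-value under 0.01, 466 probes of 461 genes were lost on miR-7 replicate 2 and detected on the other 3 arrays. The same count was 185 for miR-7 replicate 1, 102 for miR-NC replicate 2 and 81 for miR-NC replicate 1. The probes lost on the other arrays were dim where detected, with medians of 6.73 to 6.85 and none above 9. Among those lost on miR-7 replicate 1 the brightest were second probes of CPTP and CRTAP, both among the 12 falls, and each of these was also lower on replicate 2, the CPTP probe at 8.88 and 8.47 with miR-NC, then at 6.11 and 6.77. Those lost on miR-7 replicate 2 had a median of 7.46 and reached 12.19, with 198 above 8, 129 above 9 and 71 above 10. At detection p-values under 0.05 and under 0.001 the count for miR-7 replicate 2 was 548 and 613, against at most 176 on any other array.

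The brightest of these probes was that of OGA, which removes O-GlcNAc from proteins. Its deposited intensity was 6988 and 3868 with miR-NC, 4800 on miR-7 replicate 1 and 134.1 on replicate 2, so that the loss was present before any normalization. On the log2 scale this was 12.40, 11.99, 12.16 and 5.73. A probe of LAMP2, a lysosomal membrane protein, was at 12.11, 12.12 and 12.26 on the first 3 arrays and at 5.64 on miR-7 replicate 2. The 5 other kept probes of LAMP2 were all detected there, the brightest at 13.25, but 2 of them were also lower there, at 11.92, 11.81 and 12.09, then 10.66, and at 9.38, 9.07 and 8.87, then 7.76. A probe of EXOSC10, a catalytic subunit of the RNA exosome, was at 12.27, 11.97 and 12.10, then at 5.05, while another probe was at 11.67, 11.44, 11.48 and 11.60 and the remaining one at 10.25, 9.81 and 9.87, then 9.18. Other genes with such a probe were ARPC5 of the actin-nucleating complex, the kinases MAPK6 and CDK1, the transcription factor SNAI2, the chaperone VBP1 and the enamel protein TUFT1.

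Counted by level rather than by detection, 345 of 12292 kept probes (2.81%) were more than 2 log2 units below all 3 other arrays on miR-7 replicate 2, and 244 by more than 3. On miR-NC replicate 1, 4 probes were more than 2 below, and on the other 2 arrays 0. At more than 1 below, there were 540 on miR-7 replicate 2 and 122 on miR-NC replicate 1. There were 8 on miR-7 replicate 1 and 1 on miR-NC replicate 2. More than 2 above all others there was 1 probe on miR-7 replicate 2 and none elsewhere. Of the 345, 207 were not detected on that array and 138 were still detected at a lower level, so that a detection filter alone does not find them. Their mean level on the other 3 arrays had a median of 10.26, which the threshold itself favours, since only a probe well above background can be that far below the others. Their median range over those 3 arrays was 0.31. On miR-7 replicate 1 their median difference from miR-NC was 0.07 (quartiles −0.13 and 0.25).

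Most other probes of the same genes did not share the loss. Of 339 genes concerned, 145 had another kept probe, and 6 had both probes low: IVNS1ABP, KCNK1, PHIP, RPS3A, TAF1B and VBP1. The 181 remaining probes, of 139 genes, differed on miR-7 replicate 2 from the mean of the other arrays by a median of 0.09 (quartiles −0.16 and 0.31), while the 345 differed by −3.98. RPS3A, a ribosomal protein, was at 13.36, 13.51 and 13.43, then at 7.65 on 1 probe, and at 12.65, 12.84 and 12.67, then at 7.90 on the other. HLA-F, a nonclassical class I molecule, was at 13.38, 13.00 and 13.13, then at 8.75 on its brightest probe, and at 10.91, 11.10, 11.47 and 11.49 on the second. IL10RB, a chain of the type III interferon and interleukin 10 receptors, was at 10.99, 10.94 and 11.24, then at 6.29. Its second probe was at 9.43, 9.58 and 9.76, then at 7.63. The log2 fold change of −2.20 was 0.27 without miR-7 replicate 2. What set these probes apart was not tested.

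These probes represented 236 of 9549 genes (2.47%), and 229 of the 382 genes with a log2 fold change under −1. Their median standard error was 1.28, against 0.21 over all genes, and 0 passed an adjusted p of 0.05 in limma (smallest unadjusted p 0.0235). At the 1.5-fold thresholds 3 of them were lower, TMEM14B, RPL22 and MRPL10, with −2.79, −2.40 and −2.10. RPL22, a ribosomal protein, was at 13.43 and 13.29 with miR-NC, at 12.24 on miR-7 replicate 1 and at 9.68 on replicate 2. When miR-7 replicate 1 was left out, 227 of the 860 genes lower at an adjusted p under 0.05 were of this kind. They made up 10 of 65 cytosolic ribosomal proteins (15.4%), 2 of 17 p53 targets (11.8%) and 5 of 45 respiratory chain genes (11.1%). Of 26 earlier reported targets 0 were of this kind, and of 42 interferon-stimulated genes 1. A robust variance prior, which gives genes of very wide spread less weight in setting the spread of the rest, gave the 116 lower and 140 higher calls stated above, the 29 among them. The part of these probes in the number of calls was not tested.

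**Figure D5:**
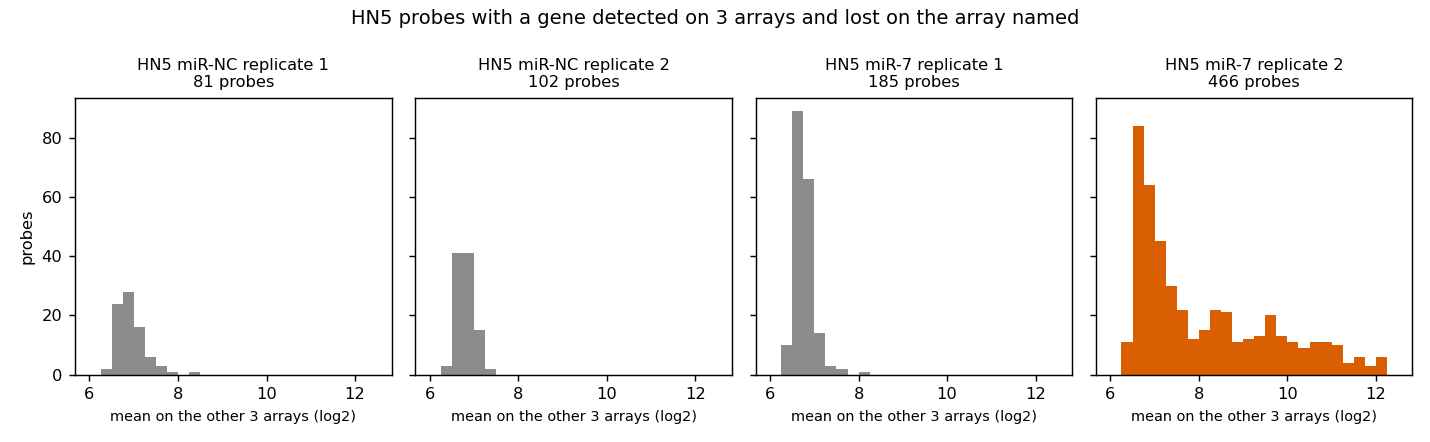
Number of probes with a gene (y axis) detected on 3 arrays and lost on the array named above each panel, by their mean log2 level on the other 3 arrays (x axis, bins of 0.25). The 466 probes lost on miR-7 replicate 2 extend to 12.19, whereas those lost on the other arrays stay under 9.

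A small number of dim probes were detected with 1 precursor only. Detected on both miR-NC arrays and neither miR-7 array were 181 probes of 179 genes, and 97 probes of 95 genes showed the reverse. In the first set, a probe of CAPZA1, which caps actin filaments, was at 7.98 and 7.61 with miR-NC and at 6.41 and 6.25 with miR-7, at least 2.58-fold lower. A dim probe of ZDHHC9, a palmitoyltransferase, was at 7.92 and 7.33, then at 5.99 and 6.26, and its bright probe was at 12.17 and 12.30, then at 10.65 and 11.06. Both probes of ZDHHC9 were lower, with log2 fold changes of −1.5 and −1.38. For the probes detected with miR-NC alone a fall is largely set by how they were chosen, so it adds no support. The bright probe of ZDHHC9 was not chosen in that way.

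Of the set detected with miR-7 alone, the brightest were CH25H and ETV7. RASGRP3, an activator of Ras and Rap proteins, was at 5.90 and 6.05 with miR-NC and at 8.16 and 7.30 with miR-7, at least 2.69-fold higher. GNB4, a G protein subunit, was at 5.95 and 6.30, then at 7.10 and 8.20, at least 2.55-fold higher. FECH, which inserts iron into heme, was at 6.10 and 6.29, then at 7.60 and 7.61, at least 2.47-fold higher. A dim probe of XAF1, a pro-apoptotic gene that interferon induces, was at 5.67 and 5.97 with miR-NC and at 7.48 and 7.68 with miR-7, and its bright probe was at 8.12 and 8.75, then at 10.40 and 10.32. In each of these genes both miR-7 arrays lay above both miR-NC arrays. For the probes detected with miR-7 alone this is largely set by how they were chosen, so it adds no support. The bright probe of XAF1 was not chosen in that way.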

How the data were processed

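The authors deposited scanner intensity per probe for 4 HN5 arrays, neither background-corrected nor normalized, with detection p-values that the deposited file holds as 1 minus p. They also deposited log2 values, made with the lumi variance-stabilizing transformation (R 2.11.0 in the submitters' processing notes) and quantile normalization in Partek. The cells of that table did not follow their probe identifiers (Spearman correlation with the array's own intensity 0.012 to 0.0195). Read in the probe order of the intensities they gave 1 array after another with 0 ranks inverted, apart from 4 missing cells of miR-NC replicate 1, and they served as an alternative only.

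Intensities were corrected and quantile-normalized with neqc of limma 3.58.1 (R 4.3.3, offset 16, detection p-values). Genes were named from the annotation of the array (13 probes with several genes and 21212 with none left out). The groups were compared with lmFit and eBayes, with Benjamini-Hochberg adjustment over 9549 genes. The procedure was also run on simulated arrays with the same spread for every gene. These hold no probes low on 1 array alone, so they cannot show how the number of calls depends on such probes. Tables and plots were made in Python 3.11.15 (pandas 2.3.3, NumPy 2.4.6, Matplotlib 3.10.9, SciPy 1.17.1). The number of arrays limits the precision.

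Named genes were the called genes without overlap between groups that had the largest fall (up to 12) or rise (up to 12), the 4 of each list with the smallest p, up to 8 called genes whose probes differed most and 8 whose probes agreed best, the brightest probes of each detection pattern (up to 10 lost on miR-7 replicate 2, 6 lost on each other array, 10 for each group alone) and markers. Other genes were named after their values were seen. The 25 lists and the members were chosen with earlier results of these data known, and the groups of interferon genes by role after the values were seen. Alternatives were no background correction, median scaling, no detection filter, detection on every array, the mean of a gene's kept probes, the methods' t-test, a robust variance prior, array weights, a replicate block, the authors' log2 values, each array left out, and detection p-values under 0.05 and 0.001. The arrays of the other cell line were not used here.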

Additional observations from a re-analysis of the deposited data

Results flagged for a closer look

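Probes without a single gene name lay outside the comparison of genes. Of 14428 kept probes, 2136 were of this kind. At the 1.5-fold thresholds 124 of these (5.81%) were higher with miR-7 and 116 (5.43%) lower, and 0 passed an adjusted p of 0.05 over all kept probes in limma. The probe among them with the smallest p was at 6.75 and 6.63 with miR-NC and at 8.42 and 8.69 with miR-7. The gene it measures was not worked out here. With 2 arrays per group, no array could be tested as an outlier of its group.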

How the results depend on the processing

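All 29 genes at an adjusted p under 0.05 kept their direction under each of the 14 alternatives in which they were tested. With detection on every array, 23 of them were tested. For many alternatives the direction was fixed in advance. The methods' t-test, robust variance prior, array weights and replicate block leave the fold change as it is. Leaving out 1 array cannot turn a probe whose groups do not overlap. The number called did not hold. After adjustment 12 genes were lower and 17 higher, and these counts became 28 and 42 without background correction, 25 and 16 with median scaling, 66 and 84 with detection on every array, 116 and 140 with a robust variance prior and 21 and 36 on the authors' values. They were 0 and 0 with no detection filter (535 and 718 past the 1.5-fold thresholds), with the mean of kept probes (432 and 538) and with the methods' t-test after adjustment (211 and 244). With the replicate block they were 1 and 10. Over genes, same-numbered arrays did not deviate together (r = 0.000499). That r takes in the probes low on miR-7 replicate 2 alone, and cannot settle whether same-numbered arrays were paired. With 1 array left out they ranged from 0 to 860 lower and 0 to 852 higher. Past the 1.5-fold thresholds, the counts of 421 lower and 574 higher were 719 and 250 with median scaling, 211 and 244 with the methods' t-test and 241 and 243 on the authors' values, the higher count was 327 without background correction, and they ranged from 210 to 1013 and from 269 to 1295 with 1 array left out. The interferon-stimulated genes higher at these thresholds (34) numbered 25 to 37 under all alternatives.

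The percent of genes whose probes share a sign (65.0) was 71.6 with median scaling, 47.7 with no detection filter, 67.3 with detection on every array and 57.8 to 71.9 with 1 array left out. With 1 array left out, the log2 fold changes of IL10RB, SAMD9 and TNFSF10 ranged from −4.68 to 0.27, −3.61 to 1.08 and −6.14 to 0.97, the lowest without miR-7 replicate 1 and the highest, with the sign turned, without miR-7 replicate 2. With the mean of kept probes those of APH1B, LRRC37B and GLRX2 turned to −0.34, −0.62 and −0.15. The means take in a second probe that was lower. Other causes were not tested. Dim probes limit what can be said of genes near background.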
